A study of Oryza sativa with 8 samples.

Results

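A set of 213 rice loci gave clear array signal in seedlings of the indica line Pokkali and none that the scanner software called clear in the japonica line Nipponbare. A locus belonged to the set if a probe of it was flagged well above background on all 4 Pokkali arrays and no probe of it carried that flag on any of the 4 Nipponbare arrays. Below, a locus with the flag is called bright and a locus without it dark. The 213 loci were 0.403% of the 52795 loci on the array. The members were thus chosen by their measured brightness in both lines, and every difference between the lines given here is a description without a test.

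Whole 14-day-old seedlings were sampled in 4 groups of 2 biological replicates: Pokkali after 8 h in 250 mM NaCl, Pokkali at 0 h, Nipponbare after 8 h in 250 mM NaCl and Nipponbare at 0 h. The RNA of every replicate went on a separate array with 1 dye, 8 in total. No group was kept for 8 h without salt, so salt and time of day cannot be told apart. Whole seedlings pool roots and shoots, and fewer cells of a type and less RNA per cell cannot be told apart. The labelled tissue was not checked against marker genes, because the files pair no locus with a gene name.

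Nipponbare is the japonica line whose genome served as the rice reference, and Pokkali is a traditional indica line known for tolerating salt. Japonica and indica rice differ by many small sequence changes and by genes that one line carries and the other lacks. An array probe is a short DNA strand fixed to glass that captures labelled RNA pairing with it, so its signal follows both the amount of a transcript and how well its sequence matches. The array was laid out on the IRGSP genome build 5, per the file headers, and the lines share 1 set of probes. For any member, a difference between the lines in transcript amount and a difference in how well transcripts match the probe cannot be told apart with these arrays.

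The 8 arrays shared 1 slide and 1 scan. Pokkali occupied slide row 2 and Nipponbare slide row 1, so line and slide row cannot be told apart. Slide position was split by time as well. In both lines, RNA from 0 h lay in slide column 1 or 2, while RNA from 8 h lay in column 3 or 4. A change between 0 h and 8 h and an effect of slide column therefore cannot be told apart either. Between 81.2% and 84.5% of the non-control spots were bright on the Pokkali arrays, against 81.0% to 85.5% on the Nipponbare arrays. The signal reached a 75th percentile of 674 to 789 intensity units in Pokkali, against 747 to 950 in Nipponbare. The dimmest bright spot of an array had between 11.4 and 14.7 units in Pokkali and between 11.7 and 15.3 units in Nipponbare. One library stood apart for some of the members. On Pokkali 8 h replicate 2, a group of 18 loci was at least 4-fold dimmer than on Pokkali 8 h replicate 1, as described further on. Their scaled signal on the 0 h replicates 1 and 2 was 1.80-fold to 5.23-fold and 3.12-fold to 8.35-fold that on 8 h replicate 2. The rule applied without Pokkali 8 h replicate 2 gave 249 loci. These had to include all 213, since leaving an array out only loosens the rule.

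Most members were dim even in Pokkali. Their median signal was 38.8 and 28.3 units on the 8 h Pokkali arrays and 43.5 and 40.6 units on the 0 h Pokkali arrays. The same loci had medians of 6.11 and 4.65 units on the 8 h Nipponbare arrays and of 7.02 and 6.04 units on the 0 h Nipponbare arrays. Relative to the array's 75th percentile, the mean Pokkali level of the median member was 5.29%, whereas that of all 40444 loci bright on the 4 Pokkali arrays was 35.7%. All 213 members were represented by a single probe, and 212 of them by a single spot. No spot of a member was saturated.

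Dark did not mean without signal. The software also flags a spot as positive and significant when its signal lies above background by a weaker criterion. By that flag, 29 members had no significant signal on any Nipponbare array, and 90 had weak but significant signal on all 4 Nipponbare arrays. Another 25, 24 and 45 members had it on 1, 2 and 3 of them. A rule built on the weaker flag gave 77 loci, of which 29 were members.

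Because every member was dark in Nipponbare, the difference between the lines is given as a lower bound. Each Nipponbare value was raised to at least the dimmest bright spot of its array before the fold was taken on the scaled signal. Some dark spots lay above that floor and kept their own value. LOC_Os07g17010, for example, had 18.1 units on Nipponbare 8 h replicate 2, where the dimmest bright spot had 15.3. The bound of the median member was 3.34-fold, or 1.99-fold with the floor raised to the 5th percentile of the bright spots. It was 2.83-fold from the 8 h arrays alone and 3.77-fold from the 0 h arrays alone. A bound of at least 2-fold was reached by 167 members, of at least 4-fold by 80, of at least 8-fold by 40, of at least 16-fold by 18 and of at least 32-fold by 8. The remaining 46 members lay below 2-fold. The 29 members without significant Nipponbare signal had a median bound of 9.44-fold, against 2.44-fold for the 90 with significant signal on all 4 Nipponbare arrays. Of the 18 members with the largest bounds, 8 had no significant Nipponbare signal. A bound taken at the floor follows the Pokkali level alone. Nothing beyond brightness in Pokkali is therefore read from these comparisons by Nipponbare signal.

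**Figure D1:**
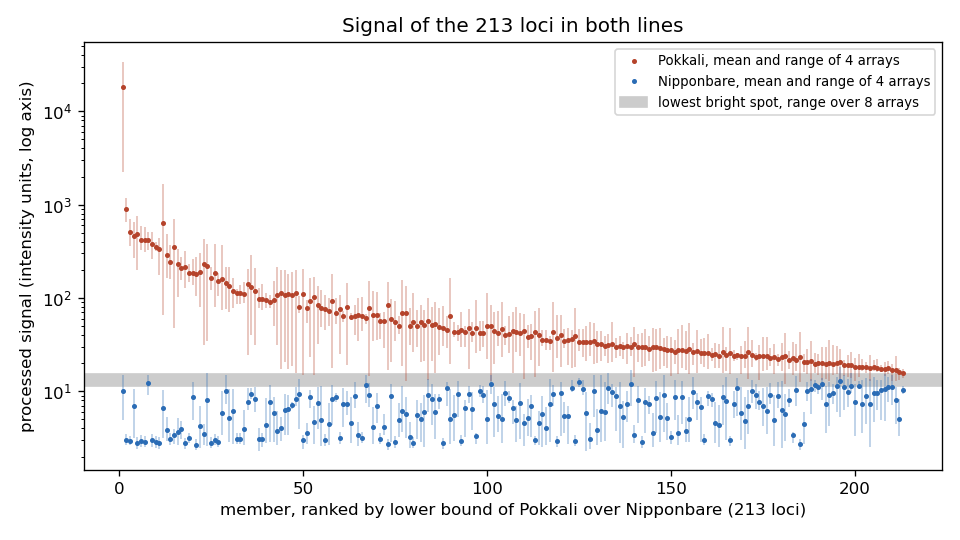
Processed signal (intensity units, log axis) of the 213 loci, ranked by the lower bound of Pokkali over Nipponbare; dots are means and bars the range over the 4 arrays of a line, and the grey band is the dimmest bright spot over the 8 arrays. A single locus reaches up to 33929 units in Pokkali, 80 loci have a bound of at least 4-fold, and the right side of the plot holds members just above the grey band.

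One member stood far above the rest. LOC_Os06g24990, on chromosome 6 by its identifier, had 32106 and 33929 units in Pokkali at 8 h and 4247 and 2236 units in Pokkali at 0 h. The same probe had 8.37 and 12.3 units in Nipponbare at 8 h and 15.0 and 4.90 units in Nipponbare at 0 h. Every Pokkali array was thus far above every Nipponbare array, with a bound of 2701-fold at 8 h and 271-fold at 0 h. Its Nipponbare signal was dark but significant on all 4 arrays.

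The next 5 members by bound were bright at both times. LOC_Os07g11150 had 648 and 883 units in Pokkali at 8 h and 919 and 1165 units at 0 h, against 2.66 to 3.48 units on the Nipponbare arrays, a bound of 75.8-fold. LOC_Os09g38900 had 539 and 462 units in Pokkali at 8 h and 705 and 358 units at 0 h, against 2.66 to 3.36 units in Nipponbare, a bound of 42.9-fold. In both, the 8 h and 0 h arrays of Pokkali overlapped after scaling.

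LOC_Os02g57305 had 650 and 558 units in Pokkali at 8 h and 389 and 269 units at 0 h, against means of 7.05 units at 8 h and 6.91 units at 0 h in Nipponbare (SD 5.17 and 5.34, n = 2 arrays each), a bound of 37.8-fold. Its log2 change in Pokkali was 1.05 (adjusted p = 0.317 by limma), or adjusted p = 0.0463 in the fit on the 4 Pokkali arrays alone. LOC_Os09g03680 had 314 and 198 units in Pokkali at 8 h and 762 and 657 units at 0 h, against 2.41 to 3.24 units in Nipponbare, a bound of 36.0-fold. LOC_Os09g06920 had 385 and 330 units in Pokkali at 8 h and 594 and 377 units at 0 h, against 2.56 to 3.41 units in Nipponbare, a bound of 35.2-fold. Of the 6 members with the largest bounds, 3 carry identifiers of chromosome 9, as do 19 of the 213 members and 3208 of the 52795 array loci. Nothing is read from so few loci.

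**Figure D2:**
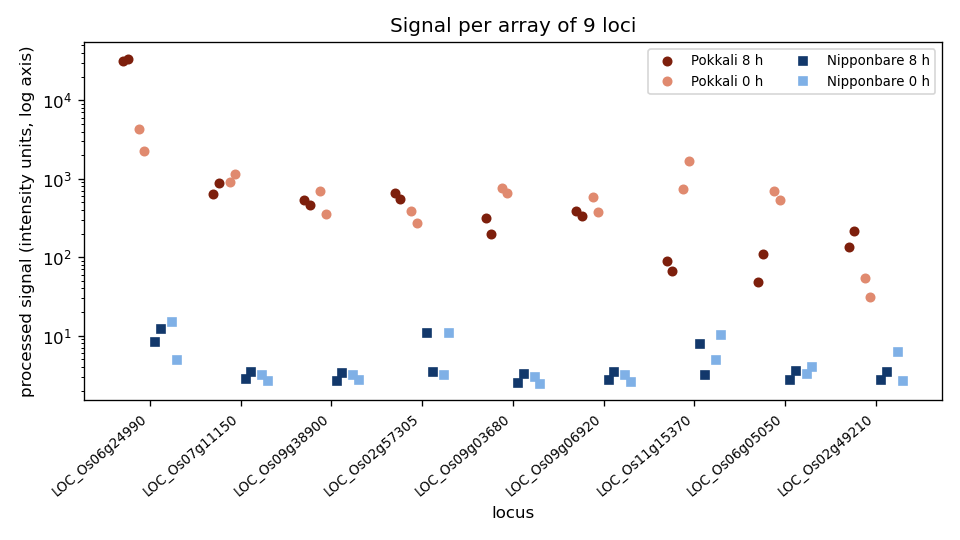
Processed signal (intensity units, log axis) on each of the 8 arrays for the 6 loci with the largest bound and the 4 with the largest rise or fall in Pokkali (9 loci, since LOC_Os06g24990 is in both groups); each point is 1 array. For every locus all Pokkali points lie above all Nipponbare points, and LOC_Os06g24990 lies between 2236 and 33929 units in Pokkali.

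At the edge of the rule, members and non-members were close together. The smallest gap between the lines was in LOC_Os07g17010, with 13.1 and 18.3 units in Pokkali at 8 h and 23.0 and 28.1 units at 0 h, against 13.1 and 18.1 units in Nipponbare at 8 h and 15.2 and 5.31 units at 0 h. It was the 1 member whose dimmest Pokkali array lay below its brightest Nipponbare array after scaling, by 0.42 log2 units. LOC_Os11g15410 and LOC_Os01g39650 followed with gaps of 0.01 and 0.09 log2 units. In these 3 loci the lines nearly met or overlapped.

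A further 312 loci missed the rule on exactly 1 array, 142 on a Pokkali array and 170 on a Nipponbare array. Single arrays differed in how many loci they kept out, from 14 for Pokkali 8 h replicate 1 to 59 for Pokkali 0 h replicate 1, and from 5 for Nipponbare 8 h replicate 2 to 75 for Nipponbare 0 h replicate 2. The largest bound among the 312 was that of LOC_Os02g54240, at 91.5-fold. It had 6505 and 9119 units in Pokkali at 8 h and 193 and 152 units at 0 h, against 16.1 and 7.80 units in Nipponbare at 8 h and 10.3 and 11.3 units at 0 h. A single Nipponbare 8 h spot at 16.1 units kept it out. LOC_Os06g17680 (56.5-fold) was kept out by a Nipponbare 0 h spot at 15.7 units. LOC_Os06g13280 (26.8-fold) was no such near miss, since it had 402 units on Nipponbare 8 h replicate 1 against 10.5 to 12.9 units on the other Nipponbare arrays, and 620 and 913 units in Pokkali at 8 h and 695 and 850 units at 0 h.

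The size of the set depended on which arrays the rule read. On the 8 h arrays alone 1005 loci were bright in Pokkali and dark in Nipponbare, and 213 of them (21.2%) were so at 0 h too. On the 0 h arrays alone 433 loci met the rule, and 213 of them (49.2%) also met it at 8 h. On the replicate 2 arrays alone 547 loci met it, of which 38.9% also met it on the replicate 1 arrays. On the replicate 1 arrays alone 433 loci met it, of which 49.2% also met it on the replicate 2 arrays. Loci with the opposite pattern, bright on all 4 Nipponbare arrays and dark on all 4 Pokkali arrays, numbered 636 (1.20% of the loci on the array). On the 8 h arrays alone the counts were 1005 and 916 for the Pokkali and the Nipponbare direction, and on the 0 h arrays alone 433 and 1481. The shares of bright spots moved with these counts. They were 84.5% and 83.1% on the Pokkali 8 h arrays against 84.9% and 81.0% on the Nipponbare 8 h arrays, and 81.2% and 83.2% on the Pokkali 0 h arrays against 84.8% and 85.5% on the Nipponbare 0 h arrays. Their part in the counts was not tested.

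The identifiers carry the chromosome, and the members were spread over all 12 chromosomes with unequal density. Chromosomes 1 to 3 held 38 members among 16860 array loci (2.25 per 1000), and chromosomes 4 to 12 held 175 among 35935 (4.87 per 1000), a grouping made after the counts were seen. The opposite set was also denser on chromosomes 4 to 12, at 13.5 per 1000, than on chromosomes 1 to 3, at 8.90 per 1000. The highest densities were on chromosome 10 with 20 members (6.16 per 1000), chromosome 12 with 23 (6.15 per 1000) and chromosome 9 with 19 (5.92 per 1000). The lowest were on chromosome 2 with 9 members (1.73 per 1000) and chromosome 8 with 9 (2.29 per 1000). Set against the loci bright on all 4 Pokkali arrays, the density was 2.81 per 1000 on chromosomes 1 to 3 and 6.50 per 1000 on chromosomes 4 to 12. On chromosome 11 the members had 5.35 per 1000 loci, against 21.7 per 1000 for the opposite set, its highest density.

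**Figure D3:**
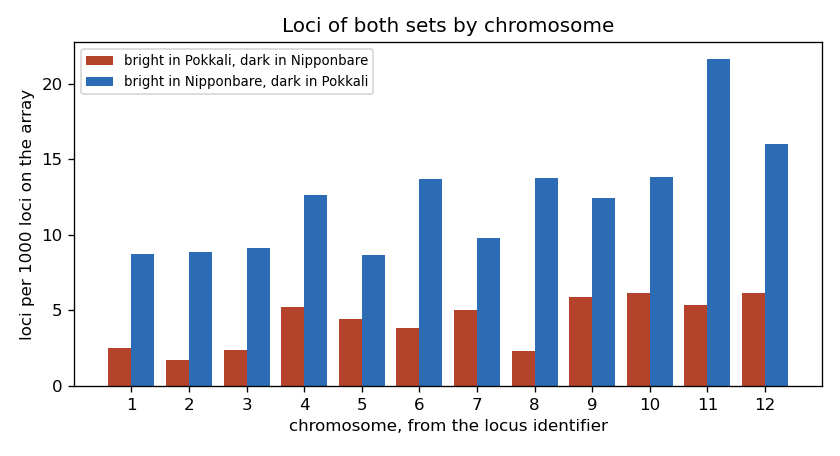
Loci per 1000 array loci on each chromosome, for the members (left bar of each pair) and for the opposite set (right bar). Members have 1.73 per 1000 on chromosome 2 and 6.16 per 1000 on chromosome 10, and the opposite set peaks at 21.7 per 1000 on chromosome 11.

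In the order of the identifiers, 1 pair of members had no other array locus between them, and 21 of the 213 had another member within 10 loci. The members in that pair were 0.939% of the set, against 7.08% of the opposite set with a neighbour of their own kind. Members made up 0.403% of the loci on the array and the opposite set 1.20%. A locus has neighbours on both sides, so shares with a neighbour lie above the array shares even for scattered loci. No clustering is read from these counts. The pair was LOC_Os12g24100 and LOC_Os12g24120 on chromosome 12. LOC_Os12g24100 had 48.0 and 53.3 units in Pokkali at 8 h and 21.7 and 33.2 units at 0 h, against 3.20 to 9.03 units in Nipponbare. LOC_Os12g24120 had 37.8 and 20.6 units in Pokkali at 8 h and 20.7 and 16.5 units at 0 h, against 4.30 to 10.9 units in Nipponbare. Neither passed the test for a change with salt (log2 changes of 1.07 and 0.75, adjusted p = 0.117 and 0.378 by limma). With another background correction (normexp), LOC_Os12g24100 did pass, at a log2 change of 0.51 (adjusted p = 0.0271 by limma).

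The rule left the change with salt inside Pokkali free, apart from requiring signal at both times, and that change was tested. The tested change cannot be told apart from time of day or slide column. Most members showed no change that passed: 30 of 213 (14.1%) had a Benjamini-Hochberg adjusted p under 0.05 by limma, 14 higher and 16 lower at 8 h. Over all 45412 loci tested, 27.2% passed, 15.2% higher and 12.0% lower. Among the 40444 loci bright on all 4 Pokkali arrays 26.9% passed, 14.6% higher and 12.3% lower. The spread in this fit was estimated over all 8 arrays, including the 4 Nipponbare arrays on which the members were dark. Fitted on the 4 Pokkali arrays alone, 29 members (13.6%) passed, 15 higher and 14 lower, against 18.6% of all loci, so the distance between the shares was smaller there. Members were also dimmer than those loci, and their 2 replicates lay further apart, by a median of 0.34 log2 units at 8 h and 0.49 at 0 h, against 0.19 and 0.27. Of the 106 members above the median level of the set 22 passed, and of the members at or below it 8 passed. The part of signal level in the lower share was not tested.

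The median log2 change of the members was -0.22 in Pokkali, against 0.08 over all loci tested. In 56 members (26.3%) both 8 h arrays lay above both 0 h arrays, and in 68 (31.9%) both lay below, compared with 37.6% and 29.6% of all loci tested and 37.1% and 30.7% of the loci bright on all 4 Pokkali arrays. Without scaling between arrays the calls split into 7 higher and 20 lower, the median of the members was -0.37 and that of all loci -0.07. There 25.9% of the member calls and 42.5% of all calls were higher. With the normexp background correction the calls split into 19 higher and 18 lower, and the medians were -0.008 and 0.07. Higher calls were then 51.4% of those of members and 56.3% of all calls. The split between rises and falls thus moved with scaling and background correction, and it is given relative to the 75th percentile. The count of calls was 9 (4.23%) without Pokkali 8 h replicate 2, when 10.5% of all loci passed, and 19 (8.92%) without Pokkali 0 h replicate 2, when 15.1% of all loci passed. Without Pokkali 8 h replicate 1 it was 29 (13.6%), 8 higher and 21 lower, when 15.4% of all loci passed, so the shares of members and of all loci lay close together in that fit.

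The steepest rise was in LOC_Os06g24990, whose signal at 8 h was 11.9-fold that at 0 h in Pokkali (log2 3.57, SE 0.54, limma adjusted p = 0.0063). The SEs given for single loci come from the fit of all 8 arrays, 2 a group, and include the spread of the dark Nipponbare arrays. LOC_Os02g49210 rose 4.61-fold (log2 2.20, SE 0.46, adjusted p = 0.0175 by limma), with 135 and 214 units at 8 h and 53.8 and 31.1 units at 0 h in Pokkali, against 2.66 to 6.20 units in Nipponbare. Leaving out Pokkali 8 h replicate 2 ended its call (adjusted p = 0.1), as did leaving out Pokkali 0 h replicate 2 (adjusted p = 0.0809). Both 8 h arrays lay above both 0 h arrays in each of these loci. The 14 members that rose did so by 1.43-fold to 11.9-fold, with a median of 2.57-fold.

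The steepest fall was in LOC_Os11g15370, with 89.7 and 65.8 units at 8 h and 742 and 1669 units at 0 h in Pokkali, against 3.17 to 10.3 units in Nipponbare. Its log2 change was -3.71 (SE 0.61, limma adjusted p = 0.00833). Leaving out Pokkali 8 h replicate 2 ended the call, at a log2 change of -3.53. LOC_Os06g05050 had 47.9 and 110 units at 8 h and 698 and 543 units at 0 h in Pokkali, against 2.72 to 3.95 units in Nipponbare. Its log2 change was -2.93 (SE 0.44, adjusted p = 0.00625 by limma). The 16 members that fell did so by 1.75-fold to 13.0-fold, with a median of 2.54-fold. LOC_Os09g03680, the fifth member by bound, was among them at a log2 change of -1.35 (SE 0.25, adjusted p = 0.012 by limma), and its call was lost when Pokkali 8 h replicate 2 was left out (adjusted p = 0.0643). Dropping the 0 h arrays numbered 1 in Pokkali and Nipponbare together also ended it (adjusted p = 0.0546), as did dropping those numbered 2 (adjusted p = 0.0523).

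**Figure D4:**
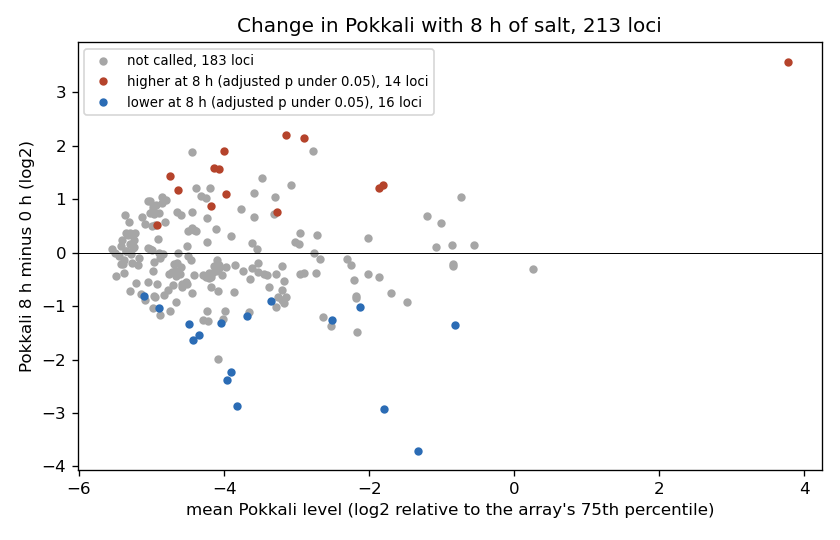
Log2 change of Pokkali at 8 h minus Pokkali at 0 h against the mean Pokkali level (log2 relative to the 75th percentile of the array), 1 point per member, with the 14 higher and 16 lower calls coloured. The 183 loci that did not pass and the 30 that did overlap along the level axis, and LOC_Os06g24990 stands alone at the upper right with a change of 3.57.

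Among the brighter members, a pair had the smallest log2 changes in Pokkali. LOC_Os10g08530 had 120 and 88.8 units at 8 h and 148 and 90.0 units at 0 h, against 2.65 to 6.26 units in Nipponbare, and a log2 change of -0.01 (SE 0.32, adjusted p = 0.984 by limma). LOC_Os09g38834 had 61.0 and 61.9 units at 8 h and 61.6 and 68.3 units at 0 h, against 2.80 to 8.71 units in Nipponbare, and a log2 change of 0.07 (SE 0.48, adjusted p = 0.926 by limma). Both SEs drew on all 8 arrays, whereas the 4 Pokkali arrays of LOC_Os09g38834 spanned 0.23 log2 units. Over the set, the 4 Pokkali arrays stayed within 2-fold of each other in 83 members and were over 4-fold apart in 41. The 41 include 18 members, described next, whose 8 h replicates differed at least 4-fold. These counts thus mix replicate spread with change between times, and they were not made for other loci. No change with salt is given for Nipponbare, since every member was dark there at both times.

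A group of 18 members shared an unusual profile over the 4 Pokkali arrays, picked out after the values were seen. Their signal on Pokkali 8 h replicate 1 was at least 4-fold that on replicate 2, with a median ratio of 9.43 and a range of 4.41 to 12.7. The opposite gap of that size occurred in 0 members. The 18 were 8.45% of the members, whereas 0.215% (87 loci) of the loci bright on all 4 Pokkali arrays had such a gap towards replicate 1 and 0.0569% (23 loci) towards replicate 2. They made up 20.7% of those 87 loci.

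These 18 loci had similar profiles over the Pokkali arrays. Their median signal was 181 units on Pokkali 8 h replicate 1 and 17.6 units on 8 h replicate 2, and 85.5 and 126 units on the 0 h replicates 1 and 2. In Nipponbare the medians were 6.90 and 6.31 units at 8 h and 8.61 and 7.34 units at 0 h. In 17 of the 18 the order was 8 h replicate 1, 0 h replicate 2, 0 h replicate 1, 8 h replicate 2 from bright to dim. The choice by the gap between the 8 h replicates favours the ends of this order. Of the 40444 loci bright on all 4 Pokkali arrays, 416 had that order, 19 of them members. The ratio of 0 h replicate 2 to 0 h replicate 1 lay between 0.839 and 1.87, with a median of 1.53. For example, LOC_Os04g04840 had 426 and 31.6 units at 8 h and 193 and 265 units at 0 h in Pokkali, against 2.68 to 4.47 units in Nipponbare. LOC_Os08g11080 had 381 and 34.3 units at 8 h and 199 and 265 units at 0 h in Pokkali, against 2.62 to 15.6 units in Nipponbare.

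The choice by a gap between the 8 h replicates also widens their error in the limma test, so nothing is read from 0 of the 18 having passed for a change with salt. The 18 loci carried identifiers of 8 chromosomes, with 5 on chromosome 4 and 3 on chromosome 8. Of the 69 loci with the same gap that were not members, 47 were bright on all 4 Nipponbare arrays, 22 on 1 to 3 of them, and 53 had the same order over the Pokkali arrays. LOC_Os06g17680, kept out of the set by 1 Nipponbare array, was among them, with 1791 and 123 units at 8 h and 803 and 1160 units at 0 h in Pokkali, against 6.83 to 15.7 units in Nipponbare.

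**Figure D5:**
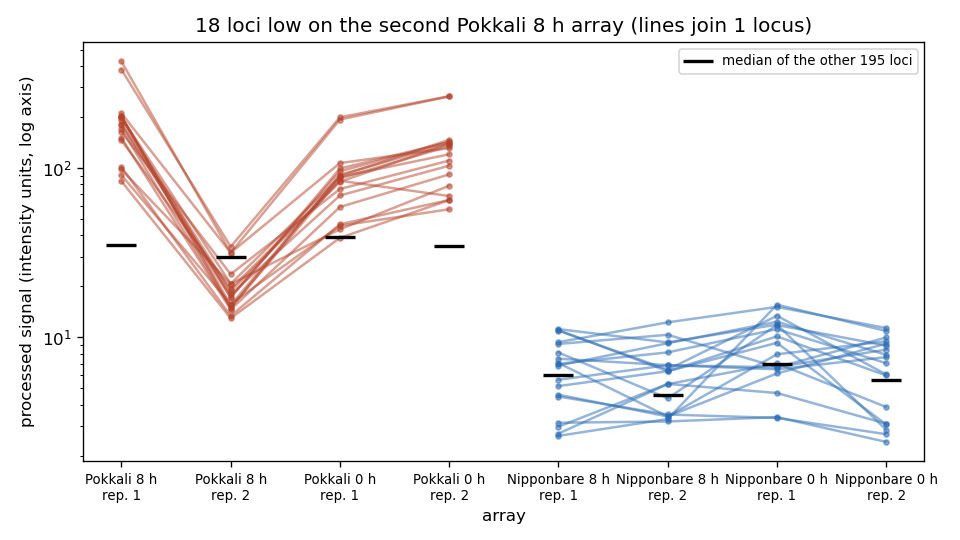
Processed signal (intensity units, log axis) of the 18 loci on the 8 arrays, 1 line per locus within each line of rice, with black marks for the median of the other members. On Pokkali 8 h replicate 2 the 18 lie between 13.0 and 34.3 units, and on Pokkali 8 h replicate 1 between 83.6 and 426 units.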

How the data were processed

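Per the labels, total RNA carried 1 dye on a custom expression array. The scanner tables as deposited come from Feature Extraction 10.7.1.1, and their processed signal intensity is background-subtracted and detrended within an array, unlogged and unscaled, per the file headers. The deposited flags are 0 or 1 per spot and of a kind other than a measurement. The deposited series value table equalled the scanner intensity in 100% of values (relative tolerance 0.0001). Where a probe had several spots, the flag carried by a share above 0.5 of them was used.

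Log2 intensity was shifted to a 75th percentile of 0 per array. Outlier spots were left out, spots and then kept probes of a locus were averaged, and probes bright on both arrays of at least 1 group were kept (47560 of 55078, giving 45412 loci). The 4 groups were fitted with limma 3.58.1 in R 4.3.3 (4 residual and 2.36 prior degrees of freedom), checked on simulated data. The number of arrays limits the precision, and 2 arrays a group allow no exact permutation p below 0.333. The labels call the replicates biological.

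Members and rules were chosen with earlier results of these data known. Named loci are the 6 largest bounds, the 2 largest rises and falls that passed with arrays apart, the 2 bright members with the smallest change, the 3 smallest gaps, the 3 largest bounds missing the rule on 1 array, and adjacent members. A further part of the rule, members with several bright probes, named none. The reference gene table named 0 members, so identifiers are given alone, and no probe sequence was used here. One Nipponbare 8 h sample is replicate 2 in its title and 1 in its description, and the title was used. One locus that meets the rule is not reported here.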

Additional observations from a re-analysis of the deposited data

How the results depend on the processing

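Of the 30 calls in Pokkali, 5 (3 higher, 2 lower) passed under all 21 alternative fits, LOC_Os06g24990 and LOC_Os06g05050 among them. Leaving out 1 array (the lone array of that group is assumed to vary like the others) gave 9 to 33 changed members, 5 to 15 higher, 4 to 21 lower and 4763 to 12018 changed loci in all; the lowest counts came without Pokkali 8 h replicate 2. Of the 30 calls, 9 to 26 still passed with 1 array left out. The fit without replicate 2 of both lines at 0 h gave 18 changed members, 7 of them higher. Members higher numbered 7 without scaling and 9 with a trend and robust prior. Without scaling 12.7% of the members and 24.4% of all loci passed, and with the trend and robust prior 9.86% and 28%. With the replicate block 40 members passed (17 higher, 23 lower), 29 of the 30 among them. These were 18.8% of the members, against 31.7% of all loci in that fit. Deviations of the second replicates correlated at 0.0778 between the Pokkali times and 0.113 between the Nipponbare times. Between the lines they correlated at 0.535 at 0 h and 0.218 at 8 h, where same-numbered arrays share a slide column, and at 0.0613 and 0.0618 across line and time. The labels tie no numbers together, so the block stands as an alternative, and whether the number or the slide column pairs arrays of 1 time was not tested. Among the named loci 6 calls ended and 6 were gained in single alternatives, and none reversed. The weaker flag gave 77 members and 216 opposite loci. The rule on 4 of the 8 arrays gave 1005 (8 h), 433 (0 h), 547 (replicate 2) and 433 (replicate 1) members, and 1481 (0 h) and 1078 (replicate 1) opposite loci. Leaving out 1 array gave 218 to 288 members and 643 to 757 opposite loci. The cause of these differences was not tested beyond fewer arrays having to meet the rule. With the floor at the 5th percentile of bright spots the median bound was 1.99-fold. The normexp alternative used the median spot signal, since the files hold no mean signal. With 1 slide and 1 scan for all arrays, neither could be a block. Signal near background limits the dim members, and with 2 arrays a group small changes were not detectable.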
